A study of Mus musculus with 48 samples.

Results

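Small nuclear RNAs (snRNAs) are short, non-polyadenylated RNAs that form the core of the spliceosome. Of the 48526 genes in the count table, 1385 carried the GENCODE biotype snRNA, and 27 of these reached a mean of at least 5 raw counts over the 48 libraries and are described here. The 27 genes held 97.7% of all snRNA counts, and 976 snRNA genes had no count in any library. By sequence, 13 belonged to the U1 family, 10 to U2, 2 to U4, and 2 resembled U6. The genes were thus chosen by their mean raw count over all libraries, so that they passed this minimum is not a result. Just inside it stood Gm22883 with a mean of 5.92 counts and Gm22042 with 5.31, and just outside it Gm22614 with 4.88 and Gm24060 with 4.79. All 27 genes also averaged at least 5 counts within input TH alone, against 26 in SC TH, 23 in input SYN and 24 in SC SYN. Gm22042 passed through input TH alone.

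The libraries came from the cerebral cortex of 12 male wild-type C57BL/6JRj mice, 4 at each of 3 ages, and none of the mice carried a transgene or received an agent. The ages are called 3w (3 weeks), 5m (labelled 6 months, with 5 months given in the protocol) and 18m (18 months). Each mouse gave 4 fractions. The total homogenate (input TH) is unfractionated cortex, and the synaptosome sample (input SYN) is a gradient fraction of pinched-off nerve terminals taken after a low-speed spin of the homogenate. SC TH and SC SYN are the material of each that pelleted through a sucrose cushion, the step used to collect ribosomes with their RNAs. Cortical neuron markers were counted in every group, with a summed level between 4018 and 13536 CPM (counts scaled to library size, with library sizes adjusted by TMM, the trimmed mean of M values). Library totals ranged from 1780267 to 18590040 counts, with the lowest in input SYN (1780267 to 7879536) and the most even in input TH (9699909 to 13225435). In such bulk samples, fewer nuclei and less RNA per nucleus cannot be told apart.

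In the major spliceosome, U1 snRNA pairs with the 5′ splice site and U2 with the branch point, while U4 delivers U6 in paired form as part of the tri-snRNP with U5. U1, U2 and U4 are made by RNA polymerase II, are exported to the cytoplasm, receive a ring of Sm proteins on a short uridine-rich site, and return to the nucleus as snRNPs. U6 is made by RNA polymerase III and carries an LSm ring instead. Mammalian genomes hold many U1 and U2 gene copies and far more defective copies. Symbols of the U5, U6, U7, U11 and U12 genes stood in the table with few counts (means of 0.12 for Rnu5g, 0.02 for Rnu6, 0 for Rnu7, 0.5 for Rnu11 and 3.21 for Rnu12), as did Rnu1b1, Rnu1b2 and Rnu1b6 (3.35, 3.69 and 4.56), and none of these was among the 27.

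The sequences below show the base differences between copies. They are DNA-strand letters of the GENCODE M21 transcripts on GRCm38, 5′ to 3′. Capitals in the first sequence of a family mark its Sm-type site, and capitals in a variant mark the bases that differ from the first. Rnu1a1 (chr11:87422867-87423030, + strand) lies in an intron of Tex14 and stands for 7 U1 genes with the same 164 bases, and Gm22513 (chr12:54696782-54696945, + strand, outside other genes) differs from it by T60C.
Rnu1a1: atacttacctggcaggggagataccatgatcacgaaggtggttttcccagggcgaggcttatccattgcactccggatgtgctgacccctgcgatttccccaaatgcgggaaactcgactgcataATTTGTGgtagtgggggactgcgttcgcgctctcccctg
Gm22513: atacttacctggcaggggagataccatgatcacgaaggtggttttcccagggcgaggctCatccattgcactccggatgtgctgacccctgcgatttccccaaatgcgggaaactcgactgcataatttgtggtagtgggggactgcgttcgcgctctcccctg
Rnu2-10 (chr11:101658238-101658428, + strand, outside other genes) stands for 4 U2 genes with the same 191 bases. Gm26316 (chr11:101604850-101605040, + strand, outside other genes) differs by C170T, Gm23472 (chr1:72236946-72237136, + strand, intron of D230017M19Rik) by G109C, and Gm25939 (chr1:72255008-72255198, + strand, intron of the same gene) by T69C, C78T and G109C. All positions count from 1 at the 5′ end of the gene.
Rnu2-10: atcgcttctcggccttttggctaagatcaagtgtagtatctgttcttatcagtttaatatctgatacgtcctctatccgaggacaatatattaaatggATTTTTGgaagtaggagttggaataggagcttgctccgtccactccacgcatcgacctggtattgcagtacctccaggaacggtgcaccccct
Gm26316: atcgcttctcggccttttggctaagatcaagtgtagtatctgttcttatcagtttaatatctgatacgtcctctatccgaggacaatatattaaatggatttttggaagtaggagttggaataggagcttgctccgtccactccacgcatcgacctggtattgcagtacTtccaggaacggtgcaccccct
Gm23472: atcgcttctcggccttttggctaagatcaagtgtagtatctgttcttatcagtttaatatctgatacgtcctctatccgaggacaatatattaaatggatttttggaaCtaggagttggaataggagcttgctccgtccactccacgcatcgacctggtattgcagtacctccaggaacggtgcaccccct
Gm25939: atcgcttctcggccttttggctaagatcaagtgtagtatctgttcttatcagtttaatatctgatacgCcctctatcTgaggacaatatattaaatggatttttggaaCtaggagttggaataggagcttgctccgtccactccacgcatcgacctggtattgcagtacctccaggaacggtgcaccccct
The files name no U4 gene. Gm24407 (chr5:115490254-115490394, + strand) and Gm24265 (chr5:115489459-115489599, + strand), both outside other genes, were placed in U4 by their sequence, and bases 5 to 12 of Gm24407 are the reverse complement of bases 63 to 70 of Rnu6, a stretch of 8 bases. Gm24265 differs from Gm24407 by A88G and A99C.
Gm24407: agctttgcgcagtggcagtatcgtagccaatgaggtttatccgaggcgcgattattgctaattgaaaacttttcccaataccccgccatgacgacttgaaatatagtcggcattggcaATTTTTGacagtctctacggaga
Gm24265: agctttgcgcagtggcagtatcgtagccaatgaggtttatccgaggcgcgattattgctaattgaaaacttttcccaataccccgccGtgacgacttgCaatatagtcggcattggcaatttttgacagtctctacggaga
Gm22883 (chr11:87318694-87318799, - strand, intron of Ppm1e) is printed as an example of a U6-like copy, with its differences from Rnu6 in capitals. It is 83.2% identical to Rnu6, and Gm24552, in an intron of Dlg2, is 66.4% identical.
Gm22883: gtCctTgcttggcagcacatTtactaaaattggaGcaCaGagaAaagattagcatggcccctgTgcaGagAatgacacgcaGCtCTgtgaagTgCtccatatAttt
The Sm-type site read ATTTGTG in U1 (bases 126 to 132 of Rnu1a1) and ATTTTTG in U2 and U4 (bases 99 to 105 of Rnu2-10 and 119 to 125 of Gm24407). ATTTTTG on the gene strand occurred in 12 of the 27 genes (44.4%), all of the U2 and U4 families, and in 46 of 1383 annotated snRNA genes with a sequence (3.3%). ATTTGTG occurred in 13 of the 27 (48.1%), all U1, and in 178 of 1383 (12.9%). A match of these letters is a description and not a measured site of Sm binding.

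The 27 genes held 17 distinct sequences. Of the 27, 16 lay outside other genes, 10 in introns on the strand of the host, and 1 (Gm23238) on an exon of AC134906.1 on the opposite strand. The counting ignored strand, so reads of Gm23238 and of that gene cannot be told apart. Reads cannot separate identical copies: in Rnu1a1 and Rnu2-10 none of the windows of read length was unique among annotated snRNA genes, against 93.8% in Gm22513, 85.7% in Gm25939, 24.2% in Gm26316 and 100% in Gm24407, Gm24265 and Gm25360. The 7 identical U1 genes differed by no more than sampling noise in the median library (chi-square per degree of freedom 0.909 over 44 libraries, 0.073 to 6.173), and so did the 3 identical U2 genes on the plus strand, Rnu2-10, Gm23849 and Gm24950 (0.337 over 48 libraries, 0.03 to 3.003). Identical copies are read here as 1 measurement, and a number of called genes within a family is not a number of independent findings. Gm23971 (chr11:101645740-101645930, - strand) shares the 191 bases of Rnu2-10 but had a median of 1.37 times the counts of the 3 plus-strand copies in input TH (1.29 to 1.44 over 12 mice). With Gm23971 included, the 4 identical U2 genes had a chi-square per degree of freedom of 4.194 in the median library (0.028 to 80.262). How reads with several matching positions were assigned is not given in the sources used here.

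In the homogenate the families U1 and U2 were of similar level, and in each other fraction U2 was the more abundant. Summed over the 27 genes, the level in input TH ranged from 1509 to 2318 CPM, which was 0.185 to 0.283% of all counts. It ranged from 209 to 969 CPM in SC TH, from 127 to 527 in input SYN and from 34.8 to 305 in SC SYN. The plot of family sums by library shows these levels.

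**Figure D1:**
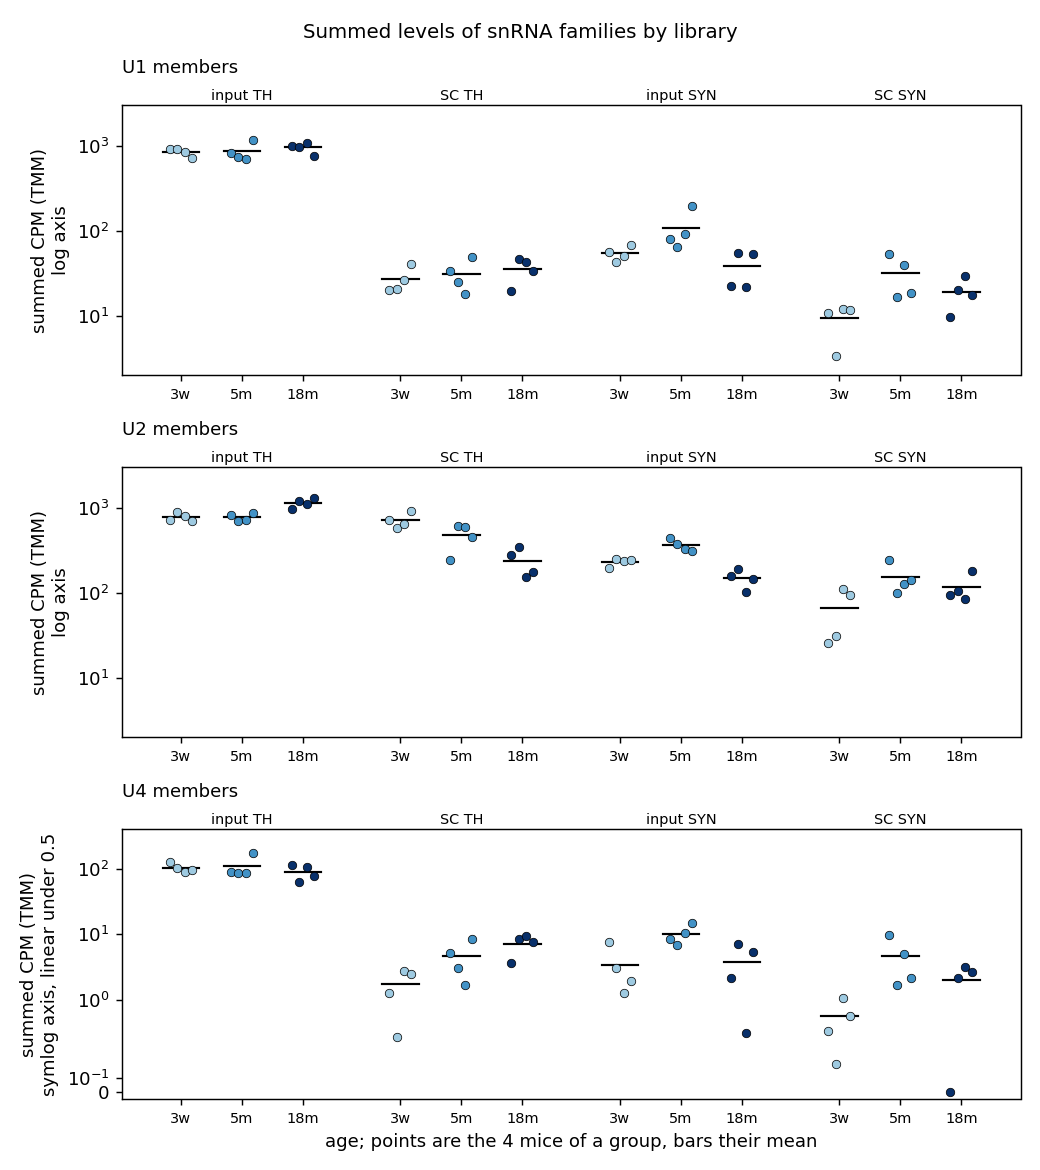
Summed TMM-scaled CPM of the U1, U2 and U4 genes (log axes, with a linear stretch under 0.5 for U4) in the 4 fractions at 3w, 5m and 18m. Points are the 4 mice of a group and bars their mean. U1 and U4 are highest in input TH, while the U2 sum of SC TH overlaps that of input TH at 3w (588 to 922 against 692 to 884 CPM) and lies below it at 18m (156 to 348 against 974 to 1307 CPM).

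The first comparison asks which snRNAs pelleted through the sucrose cushion with the ribosomes. In the homogenate, U1 and U4 were strongly reduced in the pellet and U2 much less so. The U1 sum was 916, 910, 845 and 726 CPM in the 4 input TH libraries at 3w and 20.0, 20.7, 26.3 and 41.3 CPM in SC TH of the same mice. The U2 sum was 721, 884, 800 and 692 CPM in input TH and 727, 588, 645 and 922 CPM in SC TH. So the U1 groups did not overlap, and the U2 groups did.

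Over the 3 ages, 25 of the 27 genes were lower in SC TH than in input TH and 1 was higher (adjusted p under 0.05, edgeR quasi-likelihood test with Benjamini-Hochberg adjustment). Over all genes tested, 40.2% were lower and 35.6% higher in this comparison, and the median over all genes was -0.04 on the log2 scale. All 13 U1 genes were lower, with a median of -4.74 (26.7-fold), and both U4 genes, with a median of -4.68 (25.6-fold). The 10 U2 genes were lower with a median of -1.01 (2.01-fold). This mean covers ages that differed, with U2 medians of -0.05 at 3w, -0.75 at 5m and -2.28 at 18m. Of the 10 U2 genes, 2 were called lower at 3w, 9 at 5m and 10 at 18m. Over all 18416 genes tested, 4907, 5926 and 6030 were called lower at these ages. Of the 27 members, 17 were lower and 2 higher at 3w, where 4812 of all genes were higher. Rnu1a1 fell by 4.76 ± 0.16 (SE) on the log2 scale (adjusted p = 3.75e-20), and the largest differences were those of Gm22513 (-5.23 ± 0.14, adjusted p = 1.04e-21), Gm25679 (-4.89) and Gm26244 (-4.87). Rnu2-10 fell by 1.01 ± 0.13 (adjusted p = 6.5e-08).

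Within U2, the 2 copies with the most sequence changes were lower than the rest, Gm25939 with -1.48 ± 0.09 and Gm25360 with -1.84 ± 0.13. Gm22883 was the member that was higher in SC TH (0.95 ± 0.18, adjusted p = 3.13e-05), and Gm24552 had a difference of -0.04 ± 0.16 (adjusted p = 0.863). These means cover ages that differed. Both genes were called higher at 3w (0.74 and 1.48), neither at 5m, and 1 was called lower at 18m (-0.75). Of all 18416 genes, 4812 were called higher at 3w and 6030 lower at 18m. Gm22042, a U1 gene, reached the count minimum through input TH alone, so its lower level in SC TH follows from how it was chosen. The U6-like genes rest on few reads, with 5 to 12 counts of Gm22883 per input TH library and 6 to 16 per SC TH library. Their hosts had values of 0.69 (Ppm1e, adjusted p = 4.97e-12) and 0.05 (Dlg2, adjusted p = 0.242), and whether the counts of these copies are reads of host introns was not tested.

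In synaptosomes, all 23 genes tested were lower in the pellet than in input SYN, where 21.5% of all genes were called lower. Taken by age, 21 of the 23 were lower at 3w (background 9.5%), 19 at 5m (10.3%) and 1 at 18m (6.7%), and the summed level was on average 4.5-fold, 2.68-fold and 1.41-fold lower in the pellet. The edgeR test of whether this ratio differed among ages called 0 of the 23 genes and 0 of all 14301 genes. The order of these values over the ages is therefore only a description. Over the 3 ages the medians were -1.84 for U1, -1.64 for U4 and -1.19 for U2. The U1 sum was 56.5, 42.6, 50.6 and 68.2 CPM in input SYN at 3w and 10.9, 3.34, 12.1 and 11.8 CPM in SC SYN, so the groups did not overlap. At 18m it was 22.6, 55.0, 22.1 and 54.2 CPM in input SYN and 9.79, 20.1, 29.3 and 17.7 CPM in SC SYN, which overlapped. The 3 largest differences were those of Gm23238 (-2.0), Gm22068 (-1.98) and Gm22634 (-1.88), and Gm22513 had the smallest of U1 (-0.97, adjusted p = 0.0214). Gm25360, Gm24552, Gm22883 and Gm22042 had too few counts to be tested here.

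The protocol states a clearing spin before the cushion for the homogenate lysate and none for the synaptosome lysate, so the 2 pellet comparisons differ in more than the compartment. The summed ratio of the 27 genes over the 12 mice, on the log2 scale, was -2.01 ± 0.91 (SD) for SC TH over input TH and -1.36 ± 0.93 for SC SYN over input SYN. It was below 0 in 12 of 12 mice in each.

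The second comparison asks which snRNAs were found in synaptosomes. All 26 genes tested were lower in input SYN than in input TH, a call that 47.4% of all genes shared. The medians were -4.14 for U4 (17.6-fold), -3.63 for U1 (12.4-fold) and -2.02 for U2 (4.06-fold), beside a median of -0.17 over all genes. When counts were scaled by library size alone, the median of all genes was -0.77 and that of the 26 genes -4.17, against -3.56 with TMM. Rnu1a1 ranged from 46.0 to 81.2 CPM over the 12 mice in input TH and from 0.818 to 17.1 CPM in input SYN, without overlap, and fell by 3.6 ± 0.16 on the log2 scale. Rnu2-10 ranged from 92.4 to 168 CPM in input TH and from 16.8 to 68.2 CPM in input SYN, also without overlap, and fell by 1.75 ± 0.08. Large differences were those of Gm22513 (-5.20 ± 0.17, adjusted p = 1.62e-21) and Gm24265 (-4.16). Gm22042, Gm24552 and Gm25360 averaged under 5 counts in input SYN and reached the minimum through the homogenate, so their lower level in input SYN follows from how the genes were chosen. Gm22042 had 7 to 31 counts per input TH library and 1 count in all 12 input SYN libraries together.

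Between the pellets of both compartments, 21 of 26 genes were lower in SC SYN than in SC TH (background 42.3%). Here the U2 genes had a larger median difference than the U1 genes. All 10 U2 genes were lower with a median of -2.02. Of the U1 genes 8 of 12 were lower with a median of -0.74, and Rnu1a1 did not pass the test (-0.65 ± 0.31, adjusted p = 0.0558). With the mouse as a block it did (-0.7, adjusted p = 0.0148). The U1 value differed between the ages it averages, with medians of -1.29 at 3w, -0.04 at 5m (-0.23 to 0.27 over the 12 genes) and -0.74 at 18m. Of the 26 genes, 17 were lower at 3w (background 32.4%) and 15 at 18m (32.2%). At 5m 12 were (35.8%), the 10 U2 genes and both U6-like genes. Of the U4 genes 1 of 2 was lower. The largest U2 difference was that of Gm25939 (-2.22). The other 2 calls were the U6-like genes. These reached the count minimum through the homogenate fractions, with 0 to 2 counts of Gm22883 and 0 to 3 of Gm24552 per SC SYN library, so their lower level in SC SYN follows from how the genes were chosen and is not a result.

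**Figure D2:**
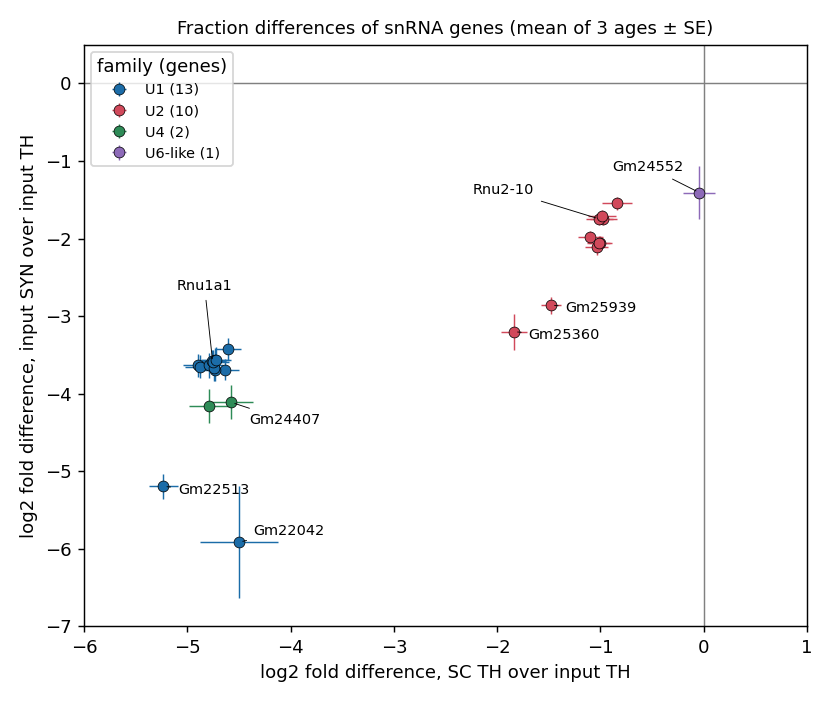
Log2 fold difference of SC TH over input TH (x axis) and of input SYN over input TH (y axis) for the 26 snRNA genes tested in both, coloured by family, as the mean over 3 ages with SE from edgeR. Both axes use the same input TH libraries, so the position along one is not independent of the other. U2 genes have medians of -1.01 on the x axis and -2.02 on the y axis, U1 genes of -4.74 and -3.63, and U4 genes of -4.68 and -4.14.

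Within a library, the ratio of U2 to U1 needs no scaling between libraries. Per base of gene, it had a median of 0.831 over the 12 input TH libraries (0.627 to 1.48), 15.7 in SC TH (3.15 to 31.1), 3.53 in input SYN (1.39 to 6.09) and 5.84 in SC SYN (2.06 to 8.80). In each of the 3 other fractions it was higher than in input TH in 12 of 12 mice. In SC TH it was 31.1, 24.4, 21 and 19.1 at 3w, 6.08, 21, 28.3 and 8.09 at 5m, and 12.3, 6.34, 3.15 and 4.46 at 18m. The 3w and 18m values did not overlap, and the 5m values spanned both. The ratio of U4 to U1 had similar medians in the 4 fractions, 0.131 in input TH, 0.158 in SC TH, 0.113 in input SYN and 0.119 in SC SYN, but it spread widely within SC TH (0.0215 to 0.263). There it was 0.074, 0.0215, 0.119 and 0.0698 at 3w, 0.177, 0.14, 0.107 and 0.2 at 5m, and 0.216, 0.207, 0.253 and 0.263 at 18m. All 18m values lay above all others, in the opposite order to the ratio of U2 to U1, and the 3w values rest on few U4 counts (1 to 15 of Gm24407 per library). These ratios are given as a description, since they were formed after the levels had been seen.

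**Figure D3:**
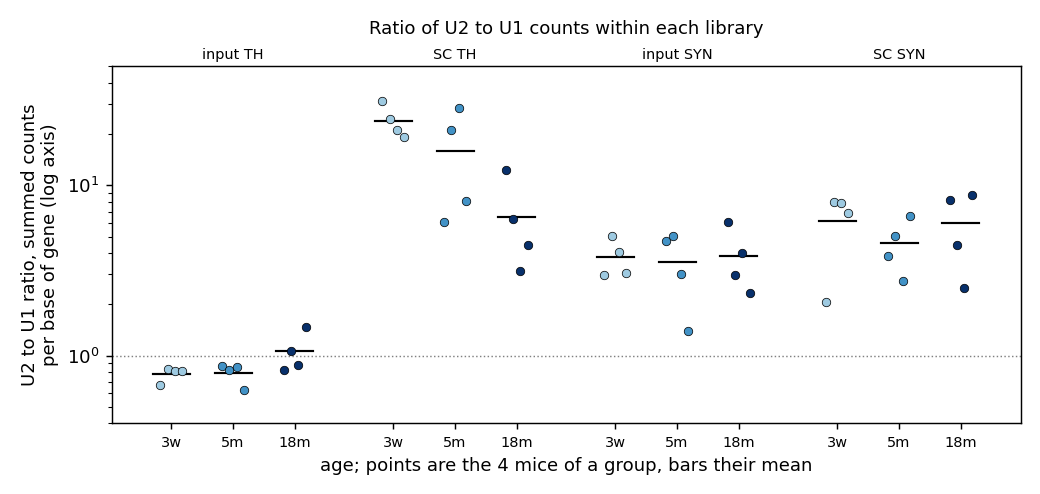
Ratio of summed U2 to summed U1 counts per base of gene within each library (log axis), by fraction and age. Points are the 4 mice of a group, bars their mean and the dotted line a ratio of 1. Input TH lies between 0.627 and 1.48, and the values of the other fractions lie between 1.39 and 31.1.

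Genes of 1 family did not all keep the same proportion between fractions. Gm22513, which most reads can tell from the common U1 sequence, had a median of 2.86 times the counts of the mean identical copy in input TH (2.66 to 3.05 over 12 mice). The ratio was 0.87 in input SYN (0.292 to 1.93), lower than in input TH in 12 of 12 mice. It was 1.90 in SC TH (0.951 to 3.21) and 1.86 in SC SYN (0.452 to 3.50), lower in 11 of 12 mice in each. These ratios rest on 29740 counts of Gm22513 in input TH but on 207 in input SYN, 703 in SC TH and 302 in SC SYN.

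Gm25939 likewise had 0.519 times the counts of the mean plus-strand U2 copy in input TH (0.434 to 0.622) and 0.199 times in input SYN (0.145 to 0.452), lower in 12 of 12 mice. In SC TH the median was 0.392 and in SC SYN 0.267, lower in 10 and 12 of 12 mice. Other U2 genes were also lower relative to these copies in input SYN than in input TH. The mean of Gm23472 and Gm23444 went from 0.63 to 0.519 and Gm23971 from 1.37 to 1.15, each lower in 12 of 12 mice. Gm23971 has the same sequence as these copies, so its ratio shifted without a difference in sequence. Gm25360 went from 0.0665 to 0.0246, on 0 to 6 counts per input SYN library. It reached the count minimum through the homogenate, so its lower ratio follows from how it was chosen. Among U1 variants, Gm24305 had medians between 0.943 and 1.01 in the 4 fractions, Gm26244 between 0.951 and 1.06, and Gm23238 between 0.817 and 0.979. Of their windows of read length, 40.6%, 20.3% and 43.8% were unique among annotated snRNA genes. Reads of the other windows are shared with other U1 genes, so these ratios are less able to show a shift. Gm26316, with C170T near its 3′ end, had 0.609 in input TH and 0.684, 0.675 and 0.671 in the others. Gm22513 and Gm25939 were singled out after the values were seen, and the ratios were not tested.

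**Figure D4:**
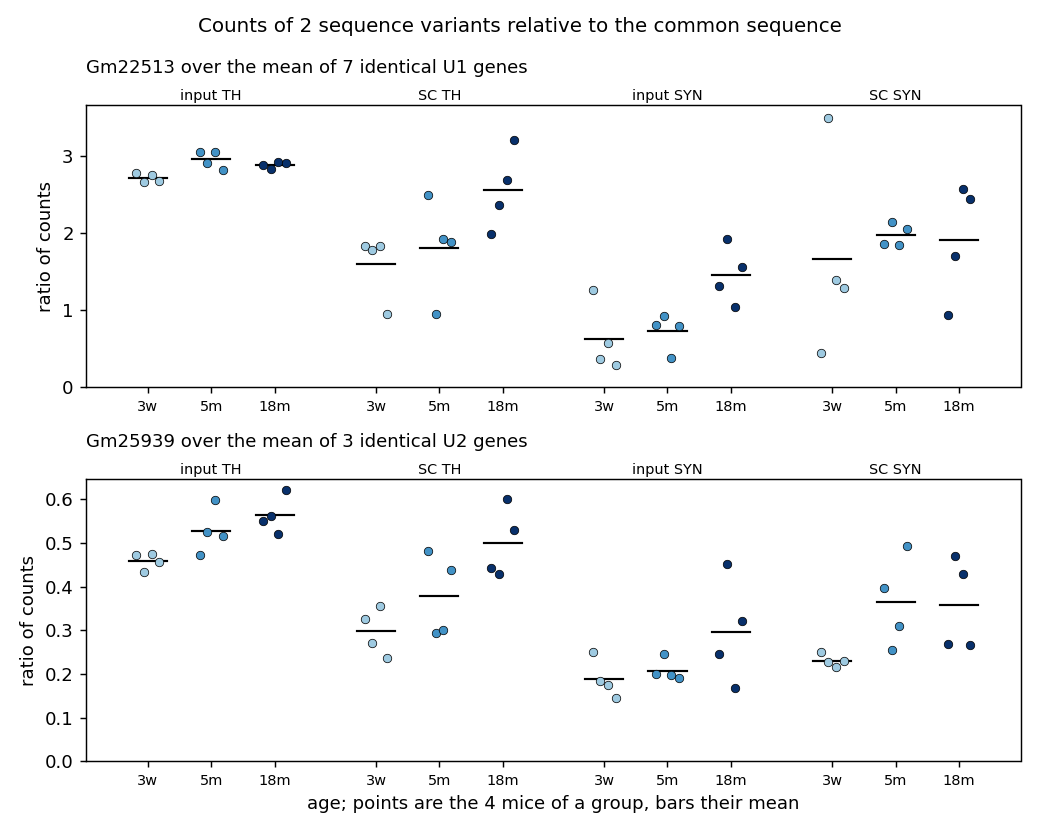
Counts of Gm22513 relative to the mean of 7 identical U1 genes (top) and of Gm25939 relative to the mean of 3 identical plus-strand U2 genes (bottom) within each library, by fraction and age. Points are the 4 mice of a group and bars their mean. In input TH the points lie between 2.66 and 3.05 and between 0.434 and 0.622, and in input SYN between 0.292 and 1.93 and between 0.145 and 0.452.

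The third comparison asks whether the levels changed between ages in each fraction. In input TH, U2 rose between 5m and 18m. The U2 sum was 832, 710, 711 and 864 CPM at 5m and 974, 1203, 1119 and 1307 CPM at 18m, without overlap. Rnu2-10 was at 113, 97.3, 92.4 and 116 CPM at 5m and 134, 161, 155 and 168 CPM at 18m. In the test, 9 of the 27 genes were higher at 18m, all of them U2, against a background of 8.18% of all genes. Gm25939 rose by 0.66 ± 0.10 on the log2 scale (adjusted p = 0.00152), Gm23444 by 0.62 ± 0.11 (adjusted p = 0.0027), Gm24497 by 0.58, Gm26316 by 0.56 and Rnu2-10 by 0.56 ± 0.09 (adjusted p = 0.00196).

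Gm25360 was the U2 gene that was not called (0.22, adjusted p = 0.331). No U1 gene passed the test (median 0.16, and 0.18 ± 0.15 with adjusted p = 0.419 for Rnu1a1). D230017M19Rik, the host of Gm24497, Gm23472 and Gm25939, had a difference of -0.09 (adjusted p = 0.766). With all 48 libraries in one fit, none of the 9 calls was made. Between 3w and 5m, none of the 27 genes passed the edgeR test in input TH, where 11.8% of all genes did. None had an unadjusted p under 0.05, and DESeq2 called none.

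In SC TH, U2 moved in the opposite direction. The U2 sum was 727, 588, 645 and 922 CPM at 3w, 241, 614, 595 and 460 CPM at 5m, and 278, 348, 156 and 174 CPM at 18m. The 3w and 18m libraries did not overlap, and the 5m libraries overlapped both. Library totals of SC TH also differed, with 3058278 to 7119395 counts at 3w, 5992223 to 13484631 at 5m and 9612408 to 15423546 at 18m. The raw U2 sum was 3072 to 5490, 3903 to 6057 and 2509 to 3940 counts at these ages. Whether depth has a part in the U2 levels was not tested. Rnu2-10 was at 97.5, 84.7, 86.7 and 130 CPM at 3w, at 32.8, 89.1, 83.3 and 58.4 CPM at 5m, and at 38.4, 48.1, 19.7 and 22.0 CPM at 18m.

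Between 3w and 5m, 5 of 26 genes fell (background 8.46%). They were Gm24552 (-1.06 ± 0.33, adjusted p = 0.0326), Gm22883 (-0.93 ± 0.32, adjusted p = 0.0492), Gm23444 (-0.80 ± 0.23, adjusted p = 0.0246), Gm24497 (-0.73) and Gm23472 (-0.70). Gm24552 had 14, 9, 11 and 7 raw counts at 3w and 18, 5, 7 and 8 at 5m. Gm22883 had 15, 14, 16 and 6, then 16, 13, 15 and 6. Their raw counts were thus similar while library totals differed, and the part of depth was not tested. Gm24552 passed the count filter of the test through its 3w libraries, so its fall follows from that filter. Between 5m and 18m, 2 fell (background 1.79%), Gm23472 by 0.98 ± 0.23 (adjusted p = 0.0353) and Gm24497 by 0.94 ± 0.24 (adjusted p = 0.0468). Rnu2-10 had -1.03 ± 0.28 and did not pass (adjusted p = 0.0646). The U1 medians were 0.26 and 0.10, with no gene called. Without mouse 191, 9 genes were called between 5m and 18m, and without mouse 196, 8. Without any 1 of the other 6 mice the count was 0. Between 3w and 5m it was 0 without mouse 187 or 190, 1 without 191 or 194, and 2 without 188.

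Long RNAs known to be mostly nuclear were also lower with age in SC TH. Of 8 such markers, 5 fell between 3w and 5m (median -0.40) and 7 between 5m and 18m (median -0.58, with Malat1 at -0.79). Their summed level was 10763 to 14164 CPM at 3w, 7742, 11387, 10936 and 7717 CPM at 5m, and 5485 to 6531 CPM at 18m, so mice 191 and 194 were low at 5m. The U2 sum at 5m was 241 CPM in mouse 191 and 460 CPM in mouse 194, against 614 and 595 CPM in the other two. In input TH the same 8 markers had a median of -0.10 between 5m and 18m, with 1 higher and 4 lower. No marker was at 0 in any group. The part of nuclear material in the pellet values was not tested.

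In input SYN, levels were highest at 5m. The U2 sum was 195, 250, 238 and 243 CPM at 3w, 438, 374, 326 and 313 CPM at 5m, and 160, 190, 103 and 147 CPM at 18m. The 5m libraries lay above all others. Between 3w and 5m, 3 of 23 genes rose (background 1.28%): Gm26244 (1.42 ± 0.38, adjusted p = 0.0479), Gm23971 (0.67, adjusted p = 0.0467) and Gm23849 (0.57, adjusted p = 0.0492). No more than 1 was called without any 1 of the 8 mice. At the same step 6 of 6 oligodendrocyte markers fell (median -1.44), from a summed 7988 to 10657 CPM to 3123 to 3366 CPM, and 3 of 6 microglia markers rose (median 0.56), from 280 to 371 CPM to 426 to 596 CPM. The oligodendrocyte sum also fell at this step in input TH (5072 to 6322 CPM to 2014 to 2294 CPM) and SC TH (3637 to 4497 CPM to 1837 to 2019 CPM). The microglia sum was 167 to 186 and 161 to 180 CPM in input TH, and 206 to 241 and 240 to 314 CPM in SC TH. No marker of these lists was at 0, and their part was not tested.

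Between 5m and 18m, 8 of 23 genes fell, all of them U2, against 0.108% of all genes (14 of 12975). Gm23472 fell by 1.5 ± 0.22 (adjusted p = 0.00474), Gm23444 by 1.5 ± 0.20 (adjusted p = 0.00212), Gm24497 by 1.48, Gm26316 by 1.30 and Rnu2-10 by 1.23 ± 0.18 (adjusted p = 0.00474). Of the 14 genes called lower over the whole table, these 8 were members. They are copies of 1 family that share reads, so they are not 8 independent findings. U1 had a median of -1.47 with no gene called (adjusted p = 0.23 for Rnu1a1), and 20 of the 23 genes had an unadjusted p under 0.05. The U1 sum was 79.7, 64.0, 92.5 and 194 CPM at 5m and 22.6, 55.0, 22.1 and 54.2 CPM at 18m, without overlap. None of the 8 nuclear RNA markers was called in edgeR in input SYN, with medians of 0.15 and -0.17, and their summed level was 2388 to 3262 CPM at 5m and 2516 to 4414 CPM at 18m.

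In SC SYN, 5 of 19 genes rose between 3w and 5m (background 4.02%). Gm24407 rose by 3.02 ± 0.89 (adjusted p = 0.0491), from 0, 1, 4 and 1 raw counts to 41, 10, 20 and 15. Gm22513 rose by 2.15 ± 0.56 (adjusted p = 0.0309), Gm26244 by 1.90 ± 0.54, Gm25939 by 1.84 ± 0.45 (adjusted p = 0.0245) and Gm23472 by 1.19 ± 0.35. At 3w, Gm22513 had 2 to 7 raw counts per library and Gm26244 had 1 to 5. Gm24407, Gm22513 and Gm26244 passed the count filter of the test through the older ages. Their rise thus follows from that filter and is not a result. Gm25939 was at 0.835, 0.982, 3.35 and 3.41 CPM at 3w and at 13.1, 3.78, 5.92 and 9.42 CPM at 5m, without overlap, while the U2 sum overlapped (26.1, 31.0, 111 and 94.6 against 241, 99.7, 128 and 142 CPM). Rnu2-10 had 1.09 and did not pass (adjusted p = 0.105). Without mouse 188 or 191 the count was 0, without 190 or 193 it was 1, and without 187, 189 or 194 it was 3. Cell type markers also differed at this step. Oligodendrocyte markers fell in 6 of 6 (median -1.24), from a summed 8099 to 9780 CPM at 3w to 3316 to 3592 CPM at 5m, and microglia markers rose in 4 of 6 (median 0.68), from 456 to 530 CPM to 755 to 903 CPM. The oligodendrocyte sum fell in input TH and SC TH as well, as given above. No marker of these lists was at 0 in either group, and their part in the snRNA values was not tested.

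Between 5m and 18m, none of the 19 genes passed in SC SYN, where 0.014% of all genes did. None had an unadjusted p under 0.05, and DESeq2 called none of the 8 it tested. The members not tested in SC SYN were Gm24305, Gm22068, Gm23804, Gm24265, Gm25360, Gm24552, Gm22883 and Gm22042.

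**Figure D5:**
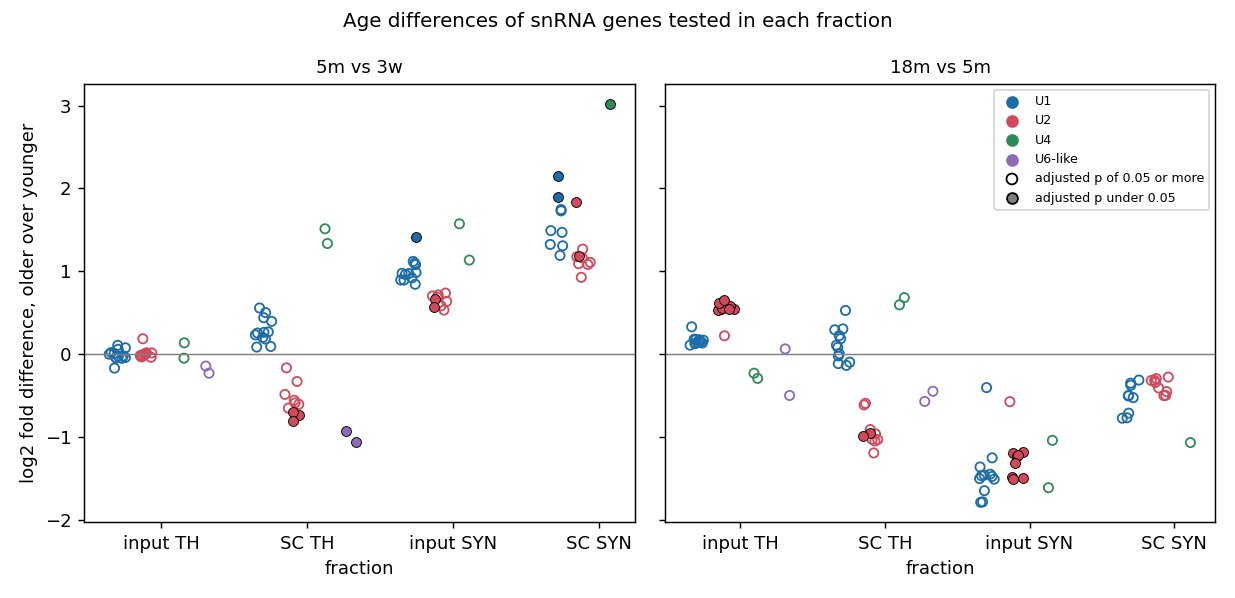
Log2 fold difference of each snRNA gene tested, for 5m over 3w (left) and 18m over 5m (right), in the 4 fractions (x axis), coloured by family. Filled points had an adjusted p under 0.05 in the edgeR quasi-likelihood test and open points did not. At 18m over 5m, 9 U2 genes are called above 0 in input TH, 2 are called below 0 in SC TH and 8 in input SYN.

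Whether a fraction ratio itself differed between ages was tested by an interaction term. For SC TH over input TH, 11 of 27 genes had a ratio that differed among the 3 ages (background 15%), 9 of them U2 (adjusted p = 0.000118 for Rnu2-10 and 1.49e-05 for Gm23444), with Gm24265 (0.033) and Gm24552 (0.032). The median U2 ratio was -0.05 at 3w, -0.75 at 5m and -2.28 at 18m, while that of U1 was -4.86, -4.61 and -4.77. The U1 genes had adjusted p values of 0.307 to 0.925. RNAs outside the snRNAs also had ratios that differed among ages here, 7 of 8 nuclear long RNA markers and 4 of 4 other structured RNAs. The markers had medians of -0.77 at 3w, -1.24 at 5m and -1.68 at 18m. Per mouse, the U2 sum had a log2 ratio of -0.12 ± 0.43 (SD, n = 4) at 3w and -2.34 ± 0.62 at 18m. The U2 sum of the pellet was thus 5.06-fold below the input at 18m, the mean over the 4 mice, and overlapped it at 3w. The SC TH libraries at 18m also had higher totals than those at 3w, and the part of depth was not tested.

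For input SYN over input TH, 11 of 26 genes differed among the ages (background 1.28%), 8 of them U2 (adjusted p = 7.2e-06 for Rnu2-10) and 3 U1 (Gm26244 0.0225, Gm24924 0.0342 and Gm22634 0.0454). The median U2 ratio was -1.87 at 3w, -1.11 at 5m and -3.03 at 18m. For SC SYN over SC TH, 9 of 26 genes differed (background 4.03%), all of them U2 (adjusted p = 0.00344 for Gm23472 and 0.0235 for Rnu2-10), with a median U2 ratio of -3.35 at 3w, -1.62 at 5m and -0.99 at 18m. The same term was called for 7 of 8 nuclear long RNA markers (medians of -3.38, -2.70 and -1.90) and 4 of 6 oligodendrocyte markers. Whether these have a part in the U2 values was not tested. With the mouse as a block, which pairs the fractions of a mouse, 5 genes were called here and 19 in input SYN over input TH. For SC SYN over input SYN, none of 23 genes passed in edgeR (background 0%), with 7 members and 457 genes at an unadjusted p under 0.05, and DESeq2 gave no value for a member.

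Other structured RNAs were compared with the snRNAs. Of 12 listed, 4 could be tested. All 4 were lower in SC TH than in input TH, with Rpph1, the RNA of RNase P, at -6.28, Rn7sk, the regulator of transcription elongation, at -5.74, and the signal recognition particle RNAs Rn7s1 and Rn7s2 at -5.20 and -5.25. Rn7sk and Rpph1 were lower in input SYN than in input TH (-2.87 and -2.75), while the cytoplasmic Rn7s1 was higher (0.61, adjusted p = 0.0066). In input TH all 4 were higher at 18m than at 5m, Rpph1 by 0.49 and Rn7sk by 0.17. Small nucleolar RNAs were lower in 39 of 40 genes for SC TH over input TH (median -2.12) and in 33 of 33 for input SYN over input TH (median -4.18). The 8 nuclear long RNA markers were lower in all 4 fraction comparisons, with medians of -1.21 for SC TH over input TH, -3.16 for input SYN over input TH, -2.64 for SC SYN over SC TH and -0.75 for SC SYN over input SYN. Markers of other cell types went both ways in input SYN over input TH. Endothelial markers were lower in 6 of 6 (median -4.27) and erythrocyte markers in 5 of 5 (-3.27), while astrocyte markers were higher in 6 of 6 (1.70), microglia markers in 6 of 6 (1.37) and oligodendrocyte markers in 3 of 6, with 2 lower (0.30).

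The mRNAs of proteins that bind snRNAs or make snRNPs differed in both directions. In SC TH over input TH, where 35.6% of all genes were higher and 40.2% lower, 6 of 8 Sm ring genes were higher and 1 lower (median 0.73), led by Snrpd1 (1.47) and Snrpf (1.29). Of 15 U2 snRNP protein genes, 9 were higher and 2 lower (median 0.46), with Sf3a2 at 1.06 and Sf3b1, the branch point binding subunit, at -0.23. Of 7 U1 snRNP protein genes, 3 were higher and 2 lower (median -0.06), with Snrpa at 1.03 and Snrnp70 at -0.81. Of 16 tri-snRNP genes 9 were higher and 1 lower (median 0.18), of 6 LSm ring genes 5 and 0 (median 0.36), and of 11 U11/U12 and U7 snRNP genes 7 and 3 (median 0.35).

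In input SYN over input TH, where 36.7% of all genes were higher and 47.4% lower, none of the 7 U1 snRNP protein genes was higher and 5 were lower, with Snrnp70 at -2.38 and Luc7l3 at -2.01. Of the U2 snRNP protein genes 2 were higher and 9 lower, of the Sm ring genes 5 and 3, of the tri-snRNP genes 5 and 9, of the LSm ring genes 3 and 2, and of the U11/U12 and U7 snRNP genes 3 and 5, with Rnpc3 at -3.40. Of 18 genes for snRNA transcription and 3′ processing 1 was higher and 14 lower (median -0.64, with Ice2 at -1.98 and Snapc3 at -1.80). Of 19 genes for snRNP assembly and import 0 were higher and 15 lower (median -0.32, with Wdr77 at -1.31). Between 5m and 18m in input TH, 8.18% of all genes were higher and 7.35% lower. There 3 of 15 U2 snRNP protein genes were higher and 3 lower (Sf3b6 at -0.42), and of the 18 transcription and processing genes 2 were higher, Snapc2 by 0.45 and Ints1 by 0.21.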

How the data were processed

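RNA was measured by rRNA-depleted, single-end sequencing of 101 cycles in 48 libraries, 4 fractions of each of 12 mice. The authors demultiplexed with bcl2fastq 2.20.0.422, aligned to GRCm38 (Ensembl release 85) with TopHat2 2.1 and assigned reads to genes with unstranded featureCounts. What they deposited is the table of raw counts. Libraries carried molecular identifiers, and whether these were used, and how reads with several positions were treated, is not given in the sources used here. Biotypes, positions and sequences came from GENCODE M21, which holds 48144 of 48526 rows, and the other rows carry 0.0596% of the counts. The members and gene lists were chosen with earlier results of these data known.

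Counts were tested with edgeR 4.0.16 in R 4.3.3 (glmQLFit and glmQLFTest, TMM, filterByExpr) over all genes, with p-values adjusted by Benjamini-Hochberg and called under 0.05. Ages were compared within a fraction (12 libraries) and fractions over 24 libraries, as the mean of the 3 ages. CPM shown in the text use TMM sizes over all 48 libraries. Ratios and sums over members have no test. Totals of 1780267 to 18590040 counts set the precision. A p of an age test rests on a spread among mice of the same age, estimated jointly from the 12 libraries of the 3 ages. In the fraction tests the 24 libraries entered without the mouse as a block, so both libraries of a mouse were treated as independent.

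The 4 libraries of a mouse share its number and so pair the fractions. The correlation of their deviations had medians from -0.01 to 0.11 over the 4 pairs of fractions. Fits with the mouse as a replicate block, DESeq2 1.42.0, library size, no filter, all 48 libraries in one fit and each mouse left out were alternatives. In a test on simulated data, with a log2 change of 1.5 planted, 195 of 197 were recovered for SC TH 18m against 5m (16238 genes), 192 of 197 for input SYN 18m against 5m (12761 genes) and 199 of 199 for SC TH against input TH (18052 genes). In these runs 13, 13 and 12 unchanged genes were called. The planted genes were drawn from all genes, and the planted change was larger than the U2 median of -0.97 in SC TH at 18m against 5m. The recovery is thus not the power for the snRNA genes.

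Named are members with an Rnu symbol, the 10 with the highest mean count, the 3 largest called differences in each direction per fraction comparison, up to 5 called members per age comparison, those next to the count minimum, host genes, and up to 2 genes per list and comparison. Gm25360, Gm24924, Gm24265, Gm24305, Gm24950, Rn7s1, Rn7s2, Sf3b1, Snrnp70 in the pellet comparison and Gm22513 in the synaptosome pellet are named beyond that rule, after their values were seen.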

Additional observations from a re-analysis of the deposited data

Results flagged for a closer look

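Of 84 sets of 4 libraries examined for a library far from the other 3, 4 had one, and chance gives about 1 in 20. The U1 sum of SC SYN at 3w was 3.34 CPM in mouse 188, against 10.9 to 12.1 CPM in the others. The U4 sum of input TH at 5m was 176 CPM in mouse 194, against 85.6 to 88.8 CPM. Rnu1a1 in input SYN at 5m was 17.1 CPM in mouse 194, against 5.53 to 6.75 CPM. The ratio of U2 to U1 in input TH at 3w was 0.676 in mouse 187, against 0.813 to 0.834.

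A fraction ratio that differed between ages, by the interaction test in edgeR, was found for 11 members in SC TH over input TH, 11 in input SYN over input TH and 9 in SC SYN over SC TH.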

How the results depend on the processing

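Summed log2 ratios kept their direction and stayed within the spread between mice under every alternative. With 1 mouse left out they ranged from -2.14 to -1.88 (SC TH over input TH), -1.48 to -1.20 (SC SYN over input SYN), -2.74 to -2.52 (input SYN over input TH) and -2.20 to -1.80 (SC SYN over SC TH). Counts of members called in the 4 fraction comparisons stayed within 1.5 times, and no result reversed. Of 568 results of single members, 454 kept their call.

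Counts between ages moved more. With the mouse as a replicate block, the interaction counts became 19 for input SYN over input TH (11 without it) and 5 for SC SYN over SC TH (9 without it), and the block moved no other count by over 1.5 times. DESeq2 gave 21 for the interaction in input SYN over input TH, 14 and 6 for input SYN (18m against 5m, 5m against 3w), 9 for SC SYN at 5m against 3w, and 1 and 2 for SC TH. It gave no value for the interaction in SC SYN over input SYN. With all 48 libraries in one fit the counts were 3 for the interaction in input SYN over input TH, 4 and 1 in input SYN, 0 in input TH at 18m against 5m, 19 in SC SYN at 5m against 3w and 8 in SC TH at 18m against 5m. Without a filter they were 21, 19 and 8, 18, and 9 and 10 for the interaction in input SYN over input TH, both steps of input SYN, SC SYN at 5m against 3w and both steps of SC TH. The cause was not tested.

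With 1 mouse left out, the ranges were 0 to 9 for SC TH at 18m against 5m, 0 to 6 for SC TH at 5m against 3w, 0 to 1 for input SYN at 5m against 3w, 0 to 4 for SC SYN at 5m against 3w, and 2 to 9 for the interaction in SC SYN over SC TH, where the count was 2 without mouse 187, 4 without 188 or 198, and 5 without 190, 195 or 197. Few counts per library limit SC SYN, where 8 members could not be tested between ages.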
